A study of Rattus norvegicus with 52 samples.

Results

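Pck1, Fbp1, G6pc, Pc and Glud1 encode 4 enzymes of glucose synthesis and 1 enzyme of ammonia production, and their expression is described here in the kidneys of 26 male rats. They were chosen by name: every probe set of the Affymetrix RAE230A and RAE230B chips whose gene symbol, or an older alias of it, was one of the 5 was taken, out of 8826 genes with a tested probe set of a single symbol. All 5 genes were measured, by 6 probe sets, all on RAE230A, and all 6 passed the filter on low values. The rats belonged to the inbred Dahl salt-sensitive strain SS/Jr (called S here) or to 1 of the congenic strains labelled ET3x1 and ET3x2, in which part of a chromosome of the R strain was placed on the S background. The labels used here do not give the ends of these segments. From weaning at day 30 every rat ate a diet with 0.4% NaCl (low salt). At 39 to 41 days some rats of each strain were moved to 4% NaCl (high salt) for 24 hours, and the left kidney was taken at 40 to 42 days. There were 5 S rats on each diet and 4 ET3x1 and 4 ET3x2 rats on each diet, each rat with 1 RAE230A and 1 RAE230B array. All strains thus share the S background, and both congenic strains were compared with the same S rats.

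The kidney and the liver are the organs that release newly made glucose, and within the kidney the pathway belongs to the proximal tubule. Glutamine taken up by proximal tubule cells is stripped of its nitrogen, which leaves as ammonium and carries acid into the urine, and the carbon skeleton that remains can go on to glucose. Glutamate dehydrogenase (Glud1) releases the second nitrogen in the mitochondrion, pyruvate carboxylase (Pc) makes oxaloacetate from pyruvate, phosphoenolpyruvate carboxykinase (Pck1) turns oxaloacetate into phosphoenolpyruvate in the cytosol, fructose-1,6-bisphosphatase (Fbp1) removes a phosphate further along, and glucose-6-phosphatase (G6pc) makes free glucose.

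Pck1 transcription is known to be driven by cyclic AMP through a promoter element near the start of the gene, and the promoters of the genes that moved together on high salt are shown for that reason. The 250 bases before the annotated start were taken from RefSeq promoters of the GRCr8 assembly for Pck1 (chr3:182348322-182348571), G6pc (now named G6pc1, chr10:86807409-86807658) and Glud1 (chr16:9646319-9646568), all on the plus strand. Capitals mark the cyclic AMP response element TTACGTCA.
Pck1: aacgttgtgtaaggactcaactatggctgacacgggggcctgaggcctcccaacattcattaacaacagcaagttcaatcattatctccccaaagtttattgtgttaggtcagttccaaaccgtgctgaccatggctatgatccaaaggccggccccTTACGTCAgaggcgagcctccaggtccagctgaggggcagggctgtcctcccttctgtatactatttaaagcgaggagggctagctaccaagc
G6pc: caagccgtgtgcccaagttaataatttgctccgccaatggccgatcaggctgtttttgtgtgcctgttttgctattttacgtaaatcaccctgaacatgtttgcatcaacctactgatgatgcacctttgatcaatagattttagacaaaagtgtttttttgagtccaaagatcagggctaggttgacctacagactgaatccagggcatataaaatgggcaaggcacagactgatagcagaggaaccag
Glud1: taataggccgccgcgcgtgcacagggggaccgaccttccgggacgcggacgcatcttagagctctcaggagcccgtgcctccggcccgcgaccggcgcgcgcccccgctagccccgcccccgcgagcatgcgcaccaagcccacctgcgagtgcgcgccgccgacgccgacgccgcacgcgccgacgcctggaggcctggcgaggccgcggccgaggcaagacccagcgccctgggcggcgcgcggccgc
The window searched ran from 250 bases before to 50 bases after the start, on both strands, in the 4 members with a RefSeq promoter (Pck1, Fbp1, G6pc and Glud1). Pck1 held TTACGTCA once, beginning at position -93 from the start, and 0.81% of 33469 promoters of the same length held that motif. None of the 4 windows held TGACGTCA, the palindromic cyclic AMP element (1.83% of all promoters), TGTTTAC, a core recognised by FOXO factors (3.78%), CAAAGTCCA, a form of the HNF4 site (0.39%), or TGTTCT, part of the glucocorticoid receptor site (20.68%). G and C made up 53.3% of the Pck1 window, 47.3% of the G6pc window, 61.0% of the Fbp1 window and 78.0% of the Glud1 window, against a median of 51.7% over all promoters. Such matches describe letters in these windows and say nothing of binding in these kidneys.

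**Figure D1:**
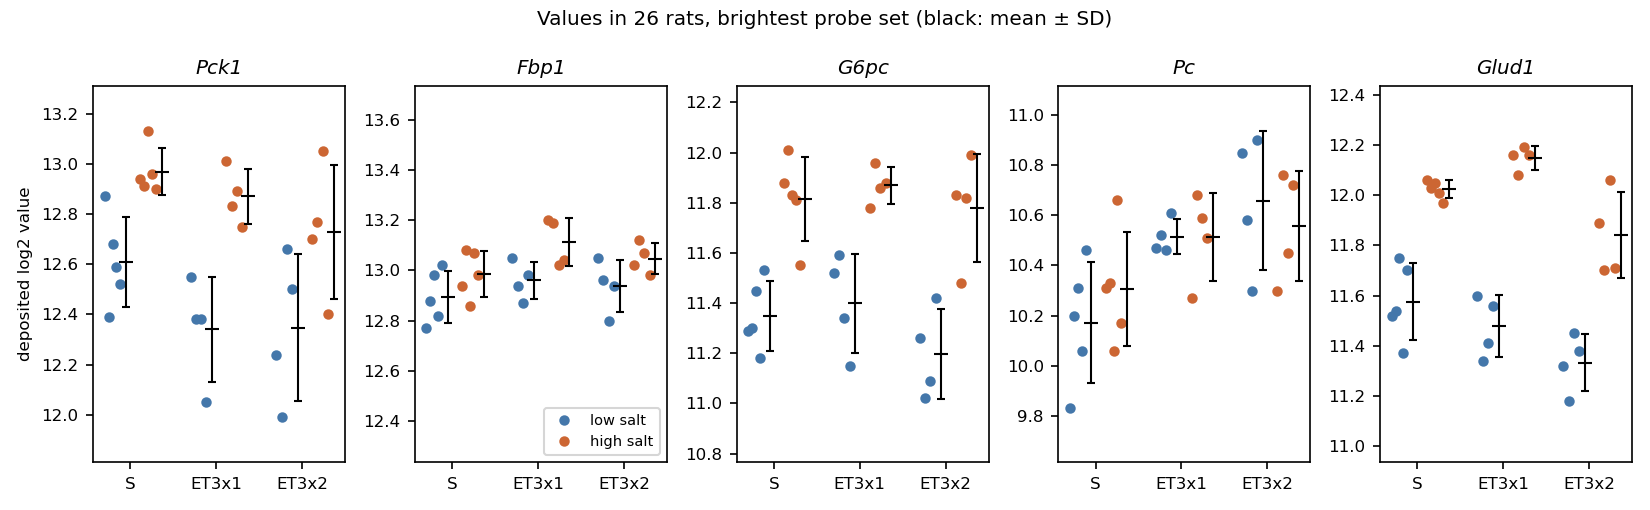
Deposited log2 values (vertical axes, each spanning the same range of log2 units) of the brightest probe set of each gene in every rat, by strain and diet; black marks are the group mean ± SD. In Glud1 and G6pc every rat on high salt (orange) lies above every rat on low salt (blue) of its strain, whereas the diets overlap in every strain for Fbp1 and Pc.

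After 24 hours of high salt, Glud1, G6pc and Pck1 were higher in the kidney, Fbp1 was slightly higher, and Pc was not called. Averaged over the 3 strains, the changes were 1.45-fold for Glud1, 1.42-fold for G6pc, 1.34-fold for Pck1 and 1.08-fold for Fbp1. Thus 4 of 5 genes were called higher (limma, adjusted p below 0.05 after Benjamini-Hochberg adjustment over 15473 tested probe sets), where 14.5% of all tested probe sets were called in either direction. The 5 genes were chosen with earlier results of these data known, so this count is no independent test. The median change of all tested probe sets was -0.001 (log2), and their median absolute change was 0.066. Values below are log2 as deposited, and each change is a log2 difference ± its standard error in limma. In a whole kidney, fewer cells of a type and less RNA per cell cannot be told apart.

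Glud1, the ammonia-producing member, had the largest averaged change of the 5 when each gene was taken by its brightest probe set. In the S rats on low salt its values were 11.52, 11.54, 11.75, 11.37 and 11.70, and in the S rats on high salt 12.06, 12.03, 12.05, 12.01 and 11.97. In ET3x1 they were 11.60, 11.34, 11.41 and 11.56 on low salt and 12.16, 12.08, 12.19 and 12.16 on high salt. In ET3x2 they were 11.32, 11.18, 11.45 and 11.38 on low salt and 11.89, 11.70, 12.06 and 11.71 on high salt. The high-salt rats lay above the low-salt rats in each strain without overlap, and the ET3x2 rats were the lowest on each diet by group mean. The change was 0.54 ± 0.05 averaged over strains (limma adjusted p = 7.8e-08), made up of 0.45 ± 0.08 in S (adjusted p = 0.00146), 0.67 ± 0.08 in ET3x1 (2.0e-05) and 0.50 ± 0.08 in ET3x2 (0.0142). A second Glud1 probe set (1370200_at) was also called higher over the strains, by 0.25 ± 0.06 (adjusted p = 0.00656), less than the 0.54 of the brightest (1387878_at), and within the strains it was not called (0.30 ± 0.10 in S, 0.17 ± 0.11 in ET3x1 and 0.26 ± 0.11 in ET3x2). For this second probe set the diets overlapped in S (low salt up to 11.17, high salt from 10.97) and in ET3x2 (10.99 and 10.75). They were apart in ET3x1. Diet accounted for 75.7% of the variance of the brighter Glud1 probe set among the 26 rats, strain for 10.6%, and differences between rats of the same group for 11.4%. For the second probe set the shares were 37.9% for diet, 12.2% for strain and 48.1% within groups.

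G6pc, which encodes the last step to free glucose, gave the following values. In S they were 11.29, 11.30, 11.45, 11.18 and 11.53 on low salt and 11.88, 12.01, 11.83, 11.81 and 11.55 on high salt. In ET3x1 they were 11.52, 11.59, 11.34 and 11.15 on low salt and 11.78, 11.96, 11.86 and 11.88 on high salt. In ET3x2 they were 11.26, 11.02, 11.09 and 11.42 on low salt and 11.83, 11.48, 11.82 and 11.99 on high salt. The diets did not overlap within any strain, although 1 S rat (11.55) and 1 ET3x2 rat (11.48) on high salt came close to the low-salt range. The change averaged 0.51 ± 0.06 (limma adjusted p = 7.6e-06), with 0.46 ± 0.10 in S (adjusted p = 0.0114), 0.47 ± 0.11 in ET3x1 (0.00504) and 0.58 ± 0.11 in ET3x2 (0.0178). Every high-salt rat lay above every low-salt rat within each of the 3 strains in only 0.200% of all tested probe sets. The brightest probe sets of Glud1 and G6pc were among them, and the second Glud1 probe set was not. The platform table lists the G6pc probe set (1386944_a_at) together with Psme3 and Aoc3, and it was counted as G6pc because the accession it was designed from is a G6pc1 transcript in RefSeq. The accessions of 3 further probe sets listed under the same genes are not RefSeq transcripts of G6pc1. Whether these probe sets measure G6pc is thus not known, and they were not attributed to a gene. Of them 1370725_a_at was higher on high salt by 0.81 ± 0.09 (limma adjusted p = 2.9e-06), with the diets overlapping in ET3x2. The others, 1372506_at (0.16 ± 0.06, adjusted p = 0.0877) and 1388582_at (0.09 ± 0.04, 0.187), were not called.

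Pck1, the enzyme that commits oxaloacetate to glucose, varied more between rats. In S its values were 12.87, 12.39, 12.68, 12.59 and 12.52 on low salt and 12.94, 12.91, 13.13, 12.96 and 12.90 on high salt. In ET3x1 they were 12.55, 12.38, 12.38 and 12.05 on low salt and 13.01, 12.83, 12.89 and 12.75 on high salt. In ET3x2 they were 12.24, 11.99, 12.66 and 12.50 on low salt and 12.70, 12.77, 13.05 and 12.40 on high salt. The diets were apart in S and ET3x1 and overlapped in ET3x2, where the lowest high-salt rat (12.40) lay below 2 low-salt rats. The change averaged 0.42 ± 0.07 (limma adjusted p = 2.4e-04) and was called in ET3x1 (0.53 ± 0.13, adjusted p = 0.00623) but not in S (0.36 ± 0.12, 0.0844) or ET3x2 (0.38 ± 0.13, 0.204). Without that lowest ET3x2 rat the change in ET3x2 was 0.49 and passed (limma adjusted p = 0.0476). With array weights the Pck1 change passed in S (0.43 ± 0.11, limma adjusted p = 0.015) and in ET3x2 (0.58 ± 0.12, 0.00524). Among the brightest probe sets of the 5 genes, every high-salt rat exceeded every low-salt rat for 3 in S (2.42% of all tested probe sets). The number was 3 in ET3x1 (8.69%) and 2 in ET3x2 (3.88%).

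Fbp1, the bisphosphatase, ranged from 12.77 to 13.02 in S rats on low salt (median 12.88) and from 12.86 to 13.08 on high salt (median 12.98). Group means ± SD were 12.89 ± 0.10 and 12.98 ± 0.09 in S (n = 5 each), 12.96 ± 0.07 and 13.11 ± 0.10 in ET3x1 (n = 4 each), and 12.94 ± 0.10 and 13.05 ± 0.06 in ET3x2 (n = 4 each), low salt first. The diets overlapped in every strain. The averaged change of 0.12 ± 0.04 passed (limma adjusted p = 0.0384), while the changes within the strains did not: 0.09 ± 0.06 in S, 0.15 ± 0.07 in ET3x1 and 0.11 ± 0.07 in ET3x2. With array weights the ET3x1 change passed (0.16 ± 0.06, limma adjusted p = 0.0266). The averaged Fbp1 call was lost when any 1 of 14 of the 26 rats was left out (0.10 to 0.13 over all 26 omissions), with quantile normalization (0.05, adjusted p = 0.374) and without the filter on low values (0.12, 0.0719).

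Pc, which makes oxaloacetate from pyruvate, was not called for diet. In S its values were 9.83, 10.20, 10.31, 10.06 and 10.46 on low salt and 10.31, 10.33, 10.06, 10.66 and 10.17 on high salt. In ET3x1 they were 10.47, 10.52, 10.46 and 10.61 on low salt and 10.27, 10.68, 10.59 and 10.51 on high salt. In ET3x2 they were 10.85, 10.58, 10.30 and 10.90 on low salt and 10.30, 10.76, 10.45 and 10.72 on high salt. The diets overlapped in every strain, and the S rats were low beside the congenic rats. The averaged change with salt was 0.01 ± 0.08 (limma adjusted p = 0.94), from 0.14 ± 0.12 in S through 0.00 ± 0.14 in ET3x1 to -0.10 ± 0.14 in ET3x2. Diet accounted for 0.2% of the variance of Pc and strain for 40.4%.

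**Figure D2:**
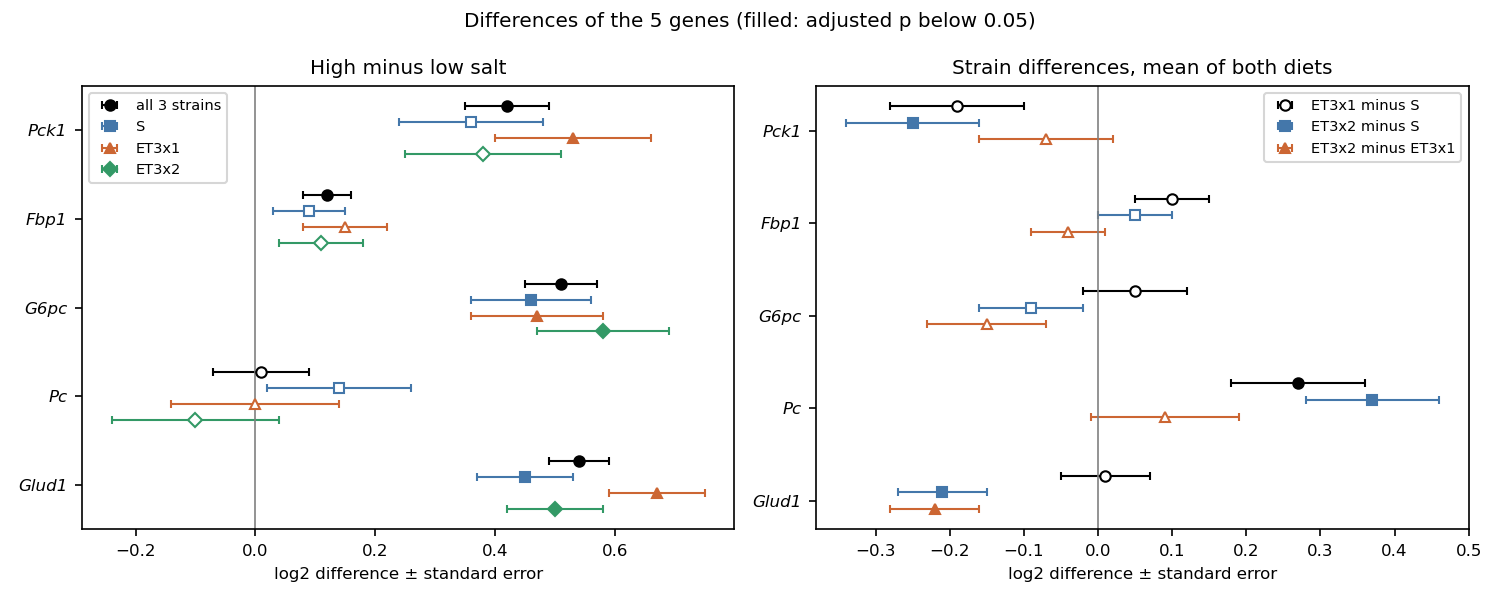
Log2 differences ± standard error (horizontal axes) of the 5 genes between high and low salt, over all 3 strains and in each (left), and between strains over both diets (right); filled symbols passed an adjusted p below 0.05. Glud1 (0.54), G6pc (0.51) and Pck1 (0.42) stand to the right for salt, while for strain Pc is higher in ET3x1 (0.27) and ET3x2 (0.37) than in S.

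Within single strains, the number of the 5 genes called for diet was 2 in S (Glud1 and G6pc, against 2.78% of all tested probe sets called), 3 in ET3x1 (Glud1, G6pc and Pck1, against 15.9%) and 2 in ET3x2 (Glud1 and G6pc, against 0.304%). In ET3x2 the Glud1 call was lost without high-salt rat 1 (0.49) or 3 (0.43), and the G6pc call without low-salt rat 2 (0.52) or high-salt rat 1 or 3 (0.57 each). Array weights added calls of Pck1 in S and ET3x2 and of Fbp1 in ET3x1. Neither the counts nor these changes of call show that the strains responded differently. The salt responses of the strains were compared directly by interaction terms, and limma called none of the 5 genes in any of the 3 comparisons of strains. At an unadjusted p below 0.05 the count was also 0 in each. Over all tested probe sets, 0.0194% were called for ET3x2 against S, 5.49% for ET3x1 against S and 0.304% for ET3x2 against ET3x1. The largest such difference relative to its error was that of Glud1 between ET3x1 and S, 0.22 ± 0.11 (limma adjusted p = 0.247). It passed with quantile normalization (0.38 ± 0.11, adjusted p = 0.0467) and was 0.04 ± 0.14 with the ratio of the 3' to the 5' Gapdh control probe sets as covariate (0.932). For G6pc the differences were 0.01 ± 0.15 (ET3x1 minus S) and 0.12 ± 0.15 (ET3x2 minus S), and for Pck1 0.17 ± 0.17 and 0.02 ± 0.17.

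The ratio of the 3' to the 5' Gapdh control probe sets, a measure of RNA and labelling quality (log2, RAE230A), was lower on high salt in the congenic strains by group mean. Its group mean ± SD was 0.88 ± 0.10 in ET3x1 on low salt and 0.59 ± 0.03 on high salt, and 0.95 ± 0.07 and 0.75 ± 0.11 in ET3x2 (n = 4 each). In S it was 0.83 ± 0.07 and 0.81 ± 0.05 (n = 5 each), a difference of -0.01. None of these differences passed after adjustment over 36 quality tests (exact permutation, two-sided: -0.28 in ET3x1, p = 0.0286, adjusted 0.0857; -0.20 in ET3x2, p = 0.0571, adjusted 0.129; in S, p = 0.706, adjusted 0.727), and 0.0286 is the smallest p that 4 rats against 4 can give. In S the changes with this ratio as a covariate were 0.44 ± 0.07 for Glud1 (limma adjusted p = 0.0014) and 0.46 ± 0.10 for G6pc (0.0132). In ET3x1 no call remained with the covariate: Glud1 0.47 ± 0.13 (limma adjusted p = 0.133), G6pc 0.35 ± 0.17 (0.415) and Pck1 0.54 ± 0.21 (0.273). Nor did any remain in ET3x2: Glud1 0.36 ± 0.11 and G6pc 0.50 ± 0.15 (limma adjusted p = 0.755 each). Over all strains the covariate gave 0.43 ± 0.07 for Glud1 (adjusted p = 0.0119), 0.43 ± 0.10 for G6pc (0.068), 0.43 ± 0.12 for Pck1 (0.138) and 0.06 ± 0.06 for Fbp1 (0.792), so that only Glud1 was still called. The number of all tested probe sets called for salt fell from 2239 to 25 with it, and the standard error was 1.61 times as large at the median probe set. With the difference of the spike-in controls bioD and bioC as the covariate, the G6pc change in S was 0.38 ± 0.10 and no longer passed (limma adjusted p = 0.0812). On RAE230A this spike-in difference moved on high salt by -0.46 in S, 0.54 in ET3x1 and 0.37 in ET3x2 (exact permutation, adjusted p = 0.451, 0.0857 and 0.129). Between strains on high salt the Gapdh ratio differed by -0.22 for ET3x1 minus S (exact permutation p = 0.00794, adjusted 0.0857). It differed by -0.07 for ET3x2 minus S (adjusted 0.398) and 0.15 for ET3x2 minus ET3x1 (adjusted 0.0857).

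The series states an interest in the region carried by ET3x2. The ends of that region are not given here, so the strain comparison cannot tie a difference to it. Pc was higher and Glud1 and Pck1 were lower in ET3x2 than in S, and the last 2 of these differences were smaller than the diet changes of the same genes. ET3x2 and S differed in 3 of the 5 genes averaged over the diets (28.5% of all tested probe sets were called). Pc was 1.29-fold higher in ET3x2 than in S (0.37 ± 0.09, limma adjusted p = 0.00523), Glud1 was lower (-0.21 ± 0.06, 0.00804) and Pck1 was lower (-0.25 ± 0.09, 0.0307). Fbp1 (0.05 ± 0.05, adjusted p = 0.388) and G6pc (-0.09 ± 0.07, 0.364) were not called. ET3x1 differed from the same S rats in 1 gene (32.3% of all tested probe sets), Pc, which was 1.21-fold higher (0.27 ± 0.09, limma adjusted p = 0.0261), with Pck1 at -0.19 ± 0.09 (0.0984) and Glud1 at 0.01 ± 0.06 (0.873). The Pc difference of ET3x1 from S no longer passed without S low-salt rat 1 (0.23), S high-salt rat 3 (0.24) or ET3x1 high-salt rat 2 (0.25). A share of 3 or 1 in 5 genes, beside backgrounds of this size, is no result about these genes as a set.

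The Pck1 difference of ET3x2 from S rested on single rats: it no longer passed without S low-salt rat 1 (-0.22), S high-salt rat 3 (-0.23), ET3x2 low-salt rat 1 (-0.23), ET3x2 low-salt rat 2 (-0.19) or ET3x2 high-salt rat 4 (-0.20), nor with quantile normalization (-0.17, limma adjusted p = 0.144). Pck1 lies on distal chromosome 3 in GRCr8, at number 630 of 670 tested genes of that chromosome in gene order. Rtel1 is number 660, with 29 tested genes between them. Whether Pck1 lies inside either congenic segment was not tested.

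ET3x2 differed from ET3x1 in 1 gene over both diets (11.1% of all tested probe sets): Glud1 was lower in ET3x2 (-0.22 ± 0.06, limma adjusted p = 0.0189). The second Glud1 probe set gave -0.16 ± 0.08 for that comparison (adjusted p = 0.161) and -0.15 ± 0.07 for ET3x2 against S (0.136), lower in sign but not called. The difference between the congenic strains no longer passed without ET3x1 low-salt rat 1 (-0.20), with quantile normalization (-0.13, adjusted p = 0.169), with the Gapdh ratio as covariate (-0.15, 0.224) or with the spike-in covariate (-0.21, 0.0655). Pc (0.09) and Pck1 (-0.07) were not called between ET3x2 and ET3x1.

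Within the diets, ET3x2 differed from S on low salt in 2 genes (18.2% of all tested probe sets), Pc (0.49 ± 0.13, limma adjusted p = 0.0123) and Glud1 (-0.24 ± 0.08, 0.0398). The Pc difference on low salt was lost without ET3x2 low-salt rat 1 (0.42) or rat 4 (0.40), and the Glud1 difference without any 1 of 6 rats (-0.25 to -0.19). The spike-in covariate ended both (Pc 0.46, limma adjusted p = 0.0514; Glud1 -0.22, 0.139). The spike-in difference was itself lower in ET3x2 than in S on low salt (-0.54 on RAE230A, exact permutation p = 0.00794, adjusted 0.0857). The Glud1 difference was also lost with quantile normalization (-0.21, limma adjusted p = 0.0624), with the Gapdh covariate (-0.15, 0.247) and with only S and ET3x2 fitted (-0.24, 0.0678). On high salt limma called none of the 5 genes between ET3x2 and S (4.25% of all tested probe sets), with 1 at an unadjusted p below 0.05. Between ET3x1 and S none was called on low salt (26.8%; 2 at an unadjusted p below 0.05) or on high salt (14.5%; 0 unadjusted). On low salt Pc was near the threshold (0.34 as reported). It passed with array medians centred (0.37, limma adjusted p = 0.041), array weights (0.31, 0.0341), the Gapdh covariate (0.37, 0.0456) or only S and ET3x1 fitted (0.34, 0.0404), and without S low-salt rat 3 (0.38) or 5 (0.42), S high-salt rat 3 or 4 or ET3x2 low-salt rat 3 (0.34 each). Pck1 also passed with only S and ET3x1 fitted (-0.27, limma adjusted p = 0.0418), and Glud1 with quantile normalization (-0.24, 0.0269). Between ET3x2 and ET3x1 none was called on low salt (2.73%; 0 unadjusted), and on high salt 1 was (9.22%), Glud1 at -0.31 ± 0.08 (limma adjusted p = 0.0244). That call was lost without ET3x1 high-salt rat 3 (-0.29) or 4 (-0.30), or ET3x2 high-salt rat 2 (-0.26) or 4 (-0.26), and with the Gapdh covariate (-0.20, limma adjusted p = 0.275) or the spike-in covariate (-0.29, 0.126).

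By group mean, the 6 groups stood in the following order. Glud1 was highest in ET3x1 on high salt (12.15 ± 0.05), then S (12.02 ± 0.04) and ET3x2 (11.84 ± 0.17) on high salt, followed by S (11.57 ± 0.15), ET3x1 (11.48 ± 0.12) and ET3x2 (11.34 ± 0.12) on low salt. Of the neighbours in that order on the same diet, none differed by the limma test. For G6pc the high-salt groups (11.87 ± 0.07 in ET3x1, 11.81 ± 0.17 in S and 11.78 ± 0.22 in ET3x2) stood above the low-salt groups (11.40 ± 0.20 in ET3x1, 11.35 ± 0.14 in S and 11.20 ± 0.18 in ET3x2). For Pck1 the order was S (12.97 ± 0.09), ET3x1 (12.87 ± 0.11) and ET3x2 (12.73 ± 0.26) on high salt, then S (12.61 ± 0.18), ET3x2 (12.35 ± 0.29) and ET3x1 (12.34 ± 0.21) on low salt, and ET3x2 on high salt overlapped S on low salt. Pc alone was ordered by strain, from 10.66 ± 0.28 and 10.56 ± 0.22 in ET3x2 (low salt, high salt) through 10.51 ± 0.07 and 10.51 ± 0.18 in ET3x1 to 10.17 ± 0.24 and 10.31 ± 0.23 in S, with neighbouring groups overlapping (n = 5 in each S group and 4 in each other group).

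Between rats of the same group, no pair of the 5 genes passed a test for varying together after adjustment. Over deviations from the group means (26 rats, 10 pairs, permutation within groups, two-sided), the strongest relation was that of Fbp1 with Pc (Pearson r = 0.58, permutation p = 0.00846, adjusted 0.0846; Spearman rho = 0.56, permutation p = 0.0102, adjusted 0.102). Without the 2 rats farthest from the median of Fbp1, r was 0.46. Glud1 and G6pc gave r = 0.29 (permutation p = 0.248, adjusted 0.496; rho = 0.30, p = 0.212, adjusted 0.353), and r = 0.17 without the 2 rats farthest in G6pc. Glud1 and Pck1 gave r = 0.44 (permutation p = 0.0897, adjusted 0.299; rho = 0.36, p = 0.146, adjusted 0.353), falling to 0.24 without the 2 rats farthest in Pck1. Pck1 and Pc gave r = -0.42 (permutation p = 0.0757, adjusted 0.299; rho = -0.35, p = 0.139, adjusted 0.353), and r = -0.49 without those 2 rats.

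**Figure D3:**
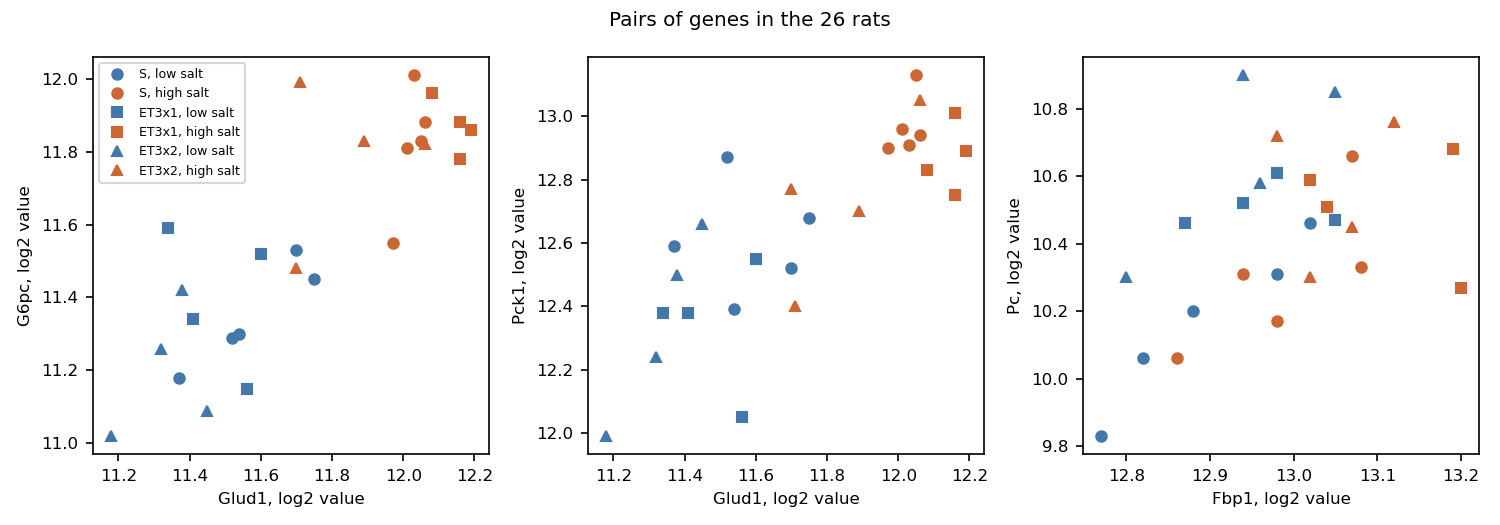
Deposited log2 values of pairs of genes in the 26 rats, G6pc and Pck1 against Glud1 and Pc against Fbp1; colour gives the diet and the symbol the strain. Glud1 separates the diets within each strain, though S on low salt (up to 11.75) overlaps ET3x2 on high salt (from 11.70), and within a diet the pairs scatter (r = 0.29 and 0.44 over deviations from group means), whereas in the Pc and Fbp1 panel (0.58) the diets are mixed.

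The genes whose values ran most like each member over the 26 rats, diet difference included, were found among 11111 probe sets of 1 symbol and are given as a description. Glud1 ran with Aco1, cytosolic aconitase (Pearson r = 0.95), Papss1, which makes the sulfate donor for sulfation (0.92), and Ndrg1, a stress-responsive gene (0.92). G6pc ran with Ndrg1 (0.90), Sardh, sarcosine dehydrogenase (0.86), and Aco1 (0.85). Pck1 ran with Slc22a25, an organic anion transporter family member (0.80), Glud1 (0.80) and Fhl1, a LIM-domain protein gene (0.79). Fbp1 ran with Rae1, a nuclear export factor (0.91), Pdk2, a kinase that inhibits pyruvate dehydrogenase (0.87), and Myl12b, a myosin light chain (0.86). Pc ran with Pink1, a mitochondrial kinase (0.92), Macrod1 (0.89) and Bckdha, a subunit of the branched-chain keto acid dehydrogenase (0.89). Aco1 and Ndrg1 thus stood among the closest of both Glud1 and G6pc, whose common salt change enters every such r.

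The rest of the pathway was described by 6 lists of 99 tested genes in all, each gene by its brightest probe set. On high salt, averaged over the 3 strains, 27 of the 99 were called. In the citric acid cycle list 11 of 19 genes were called higher and 0 lower, with a list median of 0.15. Over all 8826 genes, 760 were called higher and 461 lower, with a median of 0.00. The lists were also chosen with earlier results of these data known, so such counts are no independent test. The cycle genes with the largest changes were Aco1 (0.41 ± 0.05, limma adjusted p = 8.7e-06), Cs, citrate synthase (0.32 ± 0.05, 2.5e-04), Idh3b, a subunit of isocitrate dehydrogenase (0.28 ± 0.06, 0.00206), and Sucla2, a subunit of succinyl-CoA synthetase (0.27 ± 0.06, 0.00129). In the single strains 3 of the 19 were called higher in S, 1 in ET3x1 and 0 in ET3x2, with list medians of 0.17, 0.12 and 0.13. Of all tested probe sets 2.78%, 15.9% and 0.304% were called in these strains in either direction. At an unadjusted p below 0.05 the counts among the 19 were 14, 6 and 7.

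For salt averaged over the strains, 14.5% of all tested probe sets were called in either direction. Among 17 tested genes by which precursors enter, 6 were higher on high salt and 0 lower (median 0.12). They included Slc16a7, a monocarboxylate transporter (0.52 ± 0.08, limma adjusted p = 1.1e-04), Dld, the shared dehydrogenase of the keto acid complexes (0.43 ± 0.07, 3.1e-04), Slc5a12, a lactate transporter of the proximal tubule (0.41 ± 0.10, 0.00589), and Mpc1, a subunit of the mitochondrial pyruvate carrier (0.19 ± 0.04, 0.00424). Of 16 other genes of glucose synthesis, 3 were higher and 0 lower (median 0.10): Slc2a2, the glucose exporter GLUT2 (0.30 ± 0.07, limma adjusted p = 0.00636), Got1, cytosolic aspartate aminotransferase (0.20 ± 0.06, 0.0248), and Ldhb, a lactate dehydrogenase subunit (0.20 ± 0.04, 0.00238). Of 11 genes listed under glycolysis, 2 were higher and 0 lower (median 0.02), Ldha (0.35 ± 0.06, limma adjusted p = 1.4e-04) and Pklr, a pyruvate kinase (0.19 ± 0.05, 0.0219). Lactate dehydrogenase genes stood in both this list and that of glucose synthesis, so the lists do not separate the directions. Beside 14.5% of all tested probe sets, 3 of 16 and 2 of 11 are no result about these lists.

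Of 16 other ammonia and acid-base genes, 3 were higher on high salt and 1 was lower (median 0.08), beside 14.5% of all tested probe sets. Slc4a4, the basolateral sodium-bicarbonate cotransporter (0.38 ± 0.06, limma adjusted p = 8.3e-05), Car2, carbonic anhydrase 2 (0.36 ± 0.05, 2.8e-05), and Slc25a11, the oxoglutarate carrier (0.15 ± 0.05, 0.0345), were higher, and Rhcg, an ammonia channel of the distal nephron (-0.23 ± 0.08, 0.0479), was lower. Of 20 tested regulators 0 were higher and 1 was lower (median 0.01), Tsc22d3, a gene induced by glucocorticoids (-0.26 ± 0.08, limma adjusted p = 0.0216). With the Gapdh ratio as covariate limma called 0 of the 99 genes for salt, and 22 had an unadjusted p below 0.05.

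**Figure D4:**
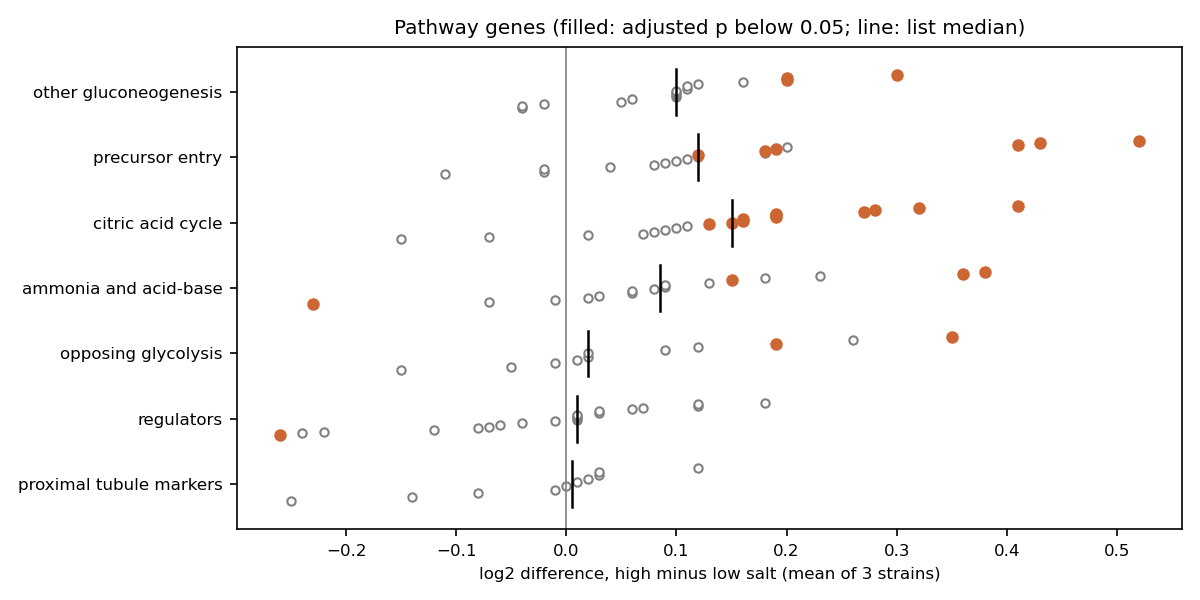
Log2 differences between high and low salt, averaged over the 3 strains (horizontal axis), of the genes of each list and of proximal tubule markers; filled points passed an adjusted p below 0.05 and lines are list medians. The citric acid cycle list has the most called genes (11 of 19, median 0.15), and no proximal tubule marker was called (median 0.01).

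The same lists were compared between strains. In ET3x2 against S, 29 of the 99 genes were called, beside 28.5% of all tested probe sets. Of the ammonia and acid-base list 2 were higher and 4 lower (median 0.06), led by Oat, ornithine aminotransferase (-0.44 ± 0.07, limma adjusted p = 1.1e-04), Rhcg (0.43 ± 0.09, 0.00145), Slc4a4 (-0.34 ± 0.07, 9.5e-04) and Car2 (-0.31 ± 0.06, 6.6e-04). Of the precursor list 2 were higher and 5 lower (median -0.03), led by Dld (-0.39 ± 0.09, limma adjusted p = 0.00261), Gpd2, mitochondrial glycerol-3-phosphate dehydrogenase (-0.34 ± 0.07, 9.6e-04), and the fructose-pathway genes Tkfc (0.31 ± 0.06, 6.8e-04) and Khk (0.26 ± 0.09, 0.0361). Of the regulators 3 were higher and 5 lower (median 0.00), led by Irs2, an insulin receptor substrate (-0.68 ± 0.14, limma adjusted p = 0.00128), Nr3c1, the glucocorticoid receptor (-0.38 ± 0.08, 0.00136), Tsc22d3 (0.28 ± 0.09, 0.0275) and Nfe2l2 (-0.26 ± 0.07, 0.0116). The other lists had 1 higher and 2 lower of 16 (glucose synthesis: Gpi at 0.33 ± 0.12, Mdh1 at -0.15 ± 0.05 and Pgam1 at -0.14 ± 0.05), 2 higher of 11 (glycolysis: Pfkm at 0.30 ± 0.06 and Aldoa at 0.29 ± 0.07) and 1 higher and 2 lower of 19 (citric acid cycle: Sucla2 at -0.21 ± 0.07, Sdhd at -0.20 ± 0.06 and Idh3g at 0.18 ± 0.06). Over all genes 1572 were higher and 1149 lower in this comparison, with a median of 0.03.

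In ET3x1 against the same S rats, 33 of the 99 genes were called, beside 32.3% of all tested probe sets. Of the glucose synthesis list 6 of 16 were higher and 0 lower (median 0.07), led by Gpi (0.39 ± 0.12, limma adjusted p = 0.0139), Tpi1 (0.38 ± 0.07, 2.9e-04), Eno1 (0.30 ± 0.09, 0.0131) and Mdh2 (0.25 ± 0.05, 0.00108). Of the ammonia and acid-base list 4 were higher and 1 lower, with Slc25a1 (0.50 ± 0.10, limma adjusted p = 7.7e-04), Rhcg (0.38 ± 0.09, 0.0032), Slc25a10 (0.30 ± 0.11, 0.0335) and Oat (-0.29 ± 0.07, 0.00228). The precursor list had 5 higher and 2 lower, led by Slc16a1 (0.42 ± 0.09, limma adjusted p = 8.1e-04), Tkfc (0.41 ± 0.06, 3.4e-05), Gpd2 (-0.39 ± 0.07, 2.6e-04) and Slc5a12 (0.36 ± 0.12, 0.0221). The glycolysis list had 4 higher and 0 lower, Aldoa (0.39 ± 0.07), Pfkl (0.38 ± 0.13), Pklr (0.26 ± 0.07) and Pfkm (0.17 ± 0.06). The citric acid cycle list had 4 higher and 0 lower, Idh3g (0.30 ± 0.06), Idh3a (0.20 ± 0.07), Ogdh (0.17 ± 0.06) and Idh2 (0.16 ± 0.05). The regulators had 4 higher and 3 lower, led by Pth1r, the parathyroid hormone receptor (0.47 ± 0.11), Irs2 (-0.38 ± 0.14), Fkbp5 (0.21 ± 0.08) and Ppargc1a (-0.21 ± 0.08). Over all genes 1656 were higher and 1181 lower, with a median of 0.02.

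Between the congenic strains 11 of the 99 genes were called, the same share as the 11.1% of all tested probe sets. In the precursor list 4 were lower in ET3x2, Slc16a1 (-0.41 ± 0.09, limma adjusted p = 0.00659), Slc5a12 (-0.39 ± 0.13, 0.0455), Mpc1 (-0.21 ± 0.06, 0.0194) and Mpc2 (-0.15 ± 0.05, 0.0331). In the glucose synthesis list 3 were lower, Tpi1 (-0.24 ± 0.07), Pgk1 (-0.22 ± 0.06) and Pgam1 (-0.17 ± 0.05). Of the citric acid cycle genes 2 were lower, Ogdh (-0.27 ± 0.06) and Suclg2 (-0.23 ± 0.06), and of the regulators 2 were higher, Per1 (0.42 ± 0.11) and Crtc2 (0.16 ± 0.05). No gene of the ammonia and acid-base list or of the glycolysis list was called by limma in that comparison, with 5 and 0 at an unadjusted p below 0.05. The strongest were Slc4a4 (-0.21 ± 0.07, adjusted p = 0.0605), Slc7a8 (-0.20 ± 0.07, 0.0613), Pfkm (0.13 ± 0.06, 0.18) and Aldoc (0.11 ± 0.06, 0.259).

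The kidney origin of the RNA showed in 10 of 10 proximal tubule markers that passed the filter, and none of the 4 hepatocyte or 4 adipocyte markers passed it (Alb 6.41 and Adipoq 5.93, beside chip medians of 7.51 and 6.38). Of the proximal tubule markers 0 were called for salt by limma (3 at an unadjusted p below 0.05; median 0.01), and their summed signal (log2) ranged from 15.41 to 15.69 in S on low salt and 15.53 to 15.68 on high salt, from 15.59 to 15.70 and 15.52 to 15.55 in ET3x1, and from 15.42 to 15.58 and 15.43 to 15.57 in ET3x2. Both tested podocyte markers of 5 listed were lower on high salt, Podxl by -0.16 ± 0.05 (limma adjusted p = 0.0188) and Synpo by -0.17 ± 0.05 (0.0183), while Nphs1 and Wt1 lay below the filter. The summed podocyte signal ranged from 10.27 to 10.48 and 10.12 to 10.47 in S, from 9.80 to 10.05 and 9.64 to 9.84 in ET3x1, and from 10.02 to 10.20 and 9.78 to 10.02 in ET3x2, low salt first. Of 3 tested endothelial markers 2 were lower on high salt, Pecam1 (-0.16 ± 0.05, limma adjusted p = 0.0368) and Tek (-0.19 ± 0.05, 0.0183), and of 4 leukocyte markers 1 was higher, Coro1a (0.25 ± 0.07, 0.0222). In the strain comparisons both podocyte markers and 1 of 3 endothelial markers were lower and 3 of 4 leukocyte markers higher in ET3x2 and in ET3x1 than in S. Of the 10 proximal tubule markers 2 were lower and 0 higher in ET3x2 than in S, the endocytic receptor genes Lrp2 (-0.52 ± 0.06) and Cubn (-0.35 ± 0.06). In ET3x1 against S 2 were lower, Lrp2 (-0.36 ± 0.06) and Cubn (-0.27 ± 0.06), and 3 higher, Slc22a12 (0.41 ± 0.12), Slc5a2 (0.25 ± 0.06) and Aqp1 (0.21 ± 0.08). In ET3x2 against S 1 of 2 thick ascending limb markers was lower, Slc12a1 (-0.51 ± 0.09), of 5 collecting duct markers 1 was lower and 1 higher, and 1 of 2 erythroid markers was higher. The part of these cell types in the member changes was not tested.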

How the data were processed

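Total RNA of 1 left kidney per rat was hybridised as biotin-labelled cRNA to both chips, per the labels' protocols. The deposited values are log2 probe set summaries, normalized by the authors as their near-equal array medians show, by methods not given in the sources used here. Symbols came from the platform annotation, updated through a GRCr8 table. Only the 15473 probe sets whose mean reached the median of their chip (7.51 and 6.38) were tested. Each chip was fitted with limma 3.58.1 in R 4.3.3 (6 groups, intensity trend, two-sided), with Benjamini-Hochberg adjustment over both chips and a threshold of 0.05; the fit was tested on simulated data. Each rat was 1 replicate. Quality measures were compared by exact permutation tests. A gene's level is its brightest probe set. From each list the 4 called genes of largest change, or with none called the 2 of largest moderated statistic, are named, and the 3 genes of highest r. Members and lists were chosen with earlier results of these data known. Alternatives covered normalization, filter, weights, trend, strains fitted, 2 quality covariates and each rat left out; quality by diet was added after seeing the data. Array number limits the precision.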

Additional observations from a re-analysis of the deposited data

Results flagged for a closer look

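Each of the 9 probe sets listed under these genes was checked in each of the 6 groups for a rat far from the rest, by the gap to the nearest rat over the group's range (Dixon's 95% limit). Of 54 such checks 3 found one, and chance alone finds about 1 in 20. The second Glud1 probe set (1370200_at) was 10.75 in ET3x2 high-salt rat 4, where the other 3 rats lay from 11.10 to 11.17. Pck1 was 13.13 in S high-salt rat 3, where the others lay from 12.90 to 12.96. The probe set 1372506_at, listed under G6pc1 and other genes, was 8.92 in S high-salt rat 4, where the others lay from 8.72 to 8.75.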

How the results depend on the processing

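No result changed direction under an alternative while called. Quantile normalization made Fbp1 in ET3x2 against S a call (0.13) and ended the calls of Fbp1 for salt (0.05), Pck1 in ET3x2 against S (-0.17), Pc in ET3x1 against S (0.21) and Glud1 in ET3x2 against ET3x1 (-0.13). It also made the Glud1 salt response of ET3x1 minus that of S a call (0.38), the only alternative run, rats left out included, that called a member for a difference between salt responses. The Gapdh covariate ended those of Fbp1 (0.06), Pck1 (0.43) and G6pc (0.43) for salt, Pc in ET3x1 against S (0.23) and Glud1 between the congenic strains (-0.15), the spike-in covariate the last as well (-0.21), and no filter that of Fbp1 for salt (0.12). With only the compared strains fitted, Pck1 in ET3x1 against S became a call (-0.19). Array weights made calls of Pck1 for salt in S (0.43) and ET3x2 (0.58) and of Fbp1 for salt in ET3x1 (0.16). Of the 5 genes, the number called for ET3x1 against S was 0 with quantile normalization or the Gapdh covariate and 2 with only the compared strains fitted. For ET3x2 against ET3x1 it was 0 with quantile normalization or either covariate. For salt it was 1 over all strains, 0 in ET3x1 and 0 in ET3x2 with the Gapdh covariate, 1 in S with the spike-in covariate, and in ET3x2 1 with quantile normalization and 0 with that strain fitted alone. Counts of 0 are limma's; with the Gapdh covariate 2 genes in ET3x1 and 3 in ET3x2 had an unadjusted p below 0.05 for salt. Leaving out each rat gave 0.10 to 0.13 for Fbp1 with salt, -0.30 to -0.19 for Pck1 in ET3x2 against S, 0.23 to 0.32 for Pc in ET3x1 against S and -0.26 to -0.20 for Glud1 between the congenic strains, and counts of 0 to 1 for ET3x1 against S and for ET3x2 against ET3x1 and 0 to 3 for salt in ET3x2. The causes were not tested. No paired analysis was possible because the replicate numbers only name rats in accession order.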
